A study of Mus musculus with 3 samples.

Results

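The S100 genes encode small calcium-binding proteins, and 8 of them (S100a1, S100a4, S100a6, S100a10, S100a11, S100a13, S100a16 and S100b) were followed by symbol through a table of 16610 genes from mouse brain. All 8 passed the filter on low values, a mean of at least 20 normalised read counts over the 3 libraries, as did 14906 genes in all. The libraries hold RNA bound to tagged ribosomes (RiboTag immunoprecipitation) from the middle section of a hemisphere, taken after 3 days. The control library is the right hemisphere of animals without middle cerebral artery occlusion (MCAO, a stroke model in which a brain artery is blocked). The contralateral library is the right hemisphere of animals with MCAO for 1 h, and the MCAO library is the left hemisphere of animals with MCAO for 1 h. The series text gives pools of 3 animals and 2 technical replicates, but the table has 1 column per group. The Cre driver, strain, age and sex are not given in the sources used here, and astrocytes are named in the series title. No left hemisphere without MCAO is among the samples, so side and occlusion cannot be told apart. With 1 library per group no difference has a replicate check, and no p-value is given.

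S100 proteins work as dimers. Each subunit carries a pair of EF-hand loops, and calcium binding opens a surface that grips target proteins such as annexins, myosin or enzymes. Some members also leave the cell and act on surface receptors, among them RAGE, encoded by Ager. In brain, S100b is a standard astrocyte marker that oligodendrocyte lineage cells also express, and S100a10 has been used as a marker of the reactive astrocyte state described after ischaemia. S100a4, S100a6, S100a10 and S100a11 are also expressed by many cells outside the nervous system, including macrophages and fibroblasts.

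Recovered depth was 25930258 to 33886604 reads per library, and 1 read was worth 0.887 to 1.18 normalised counts. All 20 astrocyte identity genes were in the table, with summed normalised counts of 675724 (control), 706613 (contralateral) and 646501 (MCAO). So were all 13 neuron genes, with sums of 232469, 207311 and 201897 in that order. In such pooled RNA from a ribosome pull-down, more cells of a type and more RNA per cell cannot be told apart. In the contralateral library 10 male germ cell genes summed to 9056 normalised counts, against 40.8 in the control and 32.8 in the MCAO library. That library also listed 47 genes at 1, the lowest value of the table, where the control listed 665 and the MCAO library 583.

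The S100 genes were higher in the MCAO hemisphere, and by very unequal amounts. S100a11, S100a6, S100a4 and S100a10 were 4.41-fold to 19.1-fold the control, S100a13, S100a16 and S100a1 were 2.10-fold to 2.61-fold the control, and S100b was 1.32-fold the control. On the log2(value + 5) scale 4 of 8 members were at least 2-fold above both right hemispheres, against 2.58% of all genes tested. Set against the control alone 7 of 8 passed 2-fold, against 4.12% of all genes, and set against the contralateral library 4 of 8 did, against 3.18%. None was 2-fold lower than the control, where 1.25% of all genes were. The median log2 difference of the 8 from the control was 1.74, and that of all genes tested was 0.00. Intervals beside ratios are 95% exact counting intervals, which cover counting error only. All 8 had an interval above 1 against the control, as did 30.0% of all genes tested.

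**Figure D1:**
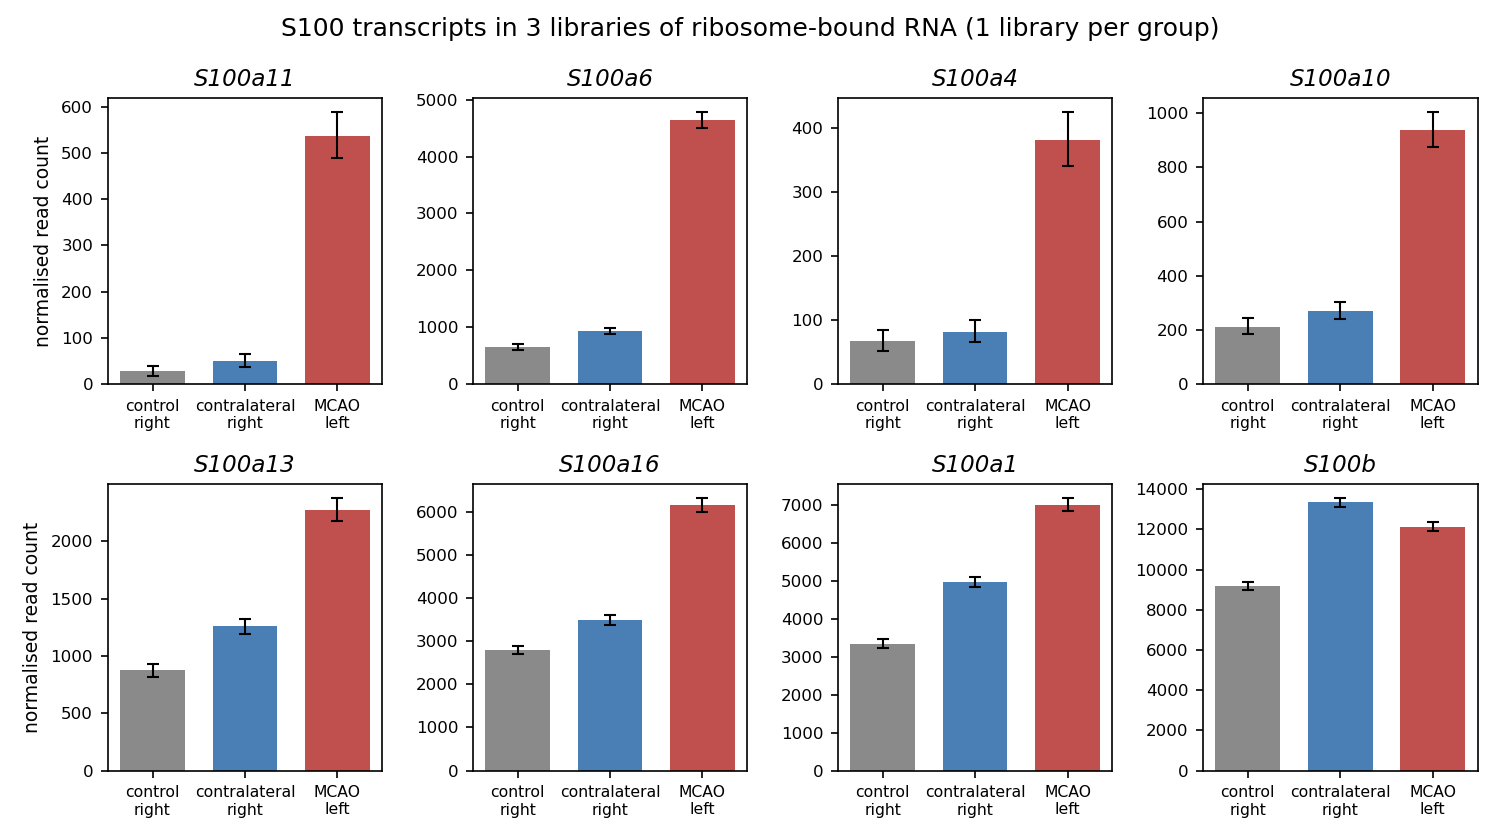
Normalised read counts (vertical axes, each from 0) of the 8 S100 genes in the control right, contralateral right and MCAO left libraries, 1 library per bar, with 95% exact Poisson counting intervals. In 7 genes the MCAO bar is the highest and the control bar the lowest, while S100b is highest in the contralateral library, at 13351 against 12130.

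S100a11, whose protein pairs with annexin A1, is known for roles in membrane repair and cell growth control. It lies on chromosome 3 (GRCm38, 93520496 to 93526288) and its normalised counts were 28.1 (control), 49.7 (contralateral) and 538 (MCAO). Both right hemispheres were low and the MCAO hemisphere stood far above them. The ratio to the control was 19.1 (13.1 to 28.9) and that to the contralateral library 10.8 (8.18 to 14.5). Its log2 difference from the control ranked 15 among the 14906 genes. The control value rests on 29 reads and the contralateral value on 56, which sets the width of these intervals. RefSeq also lists a pseudogene, S100a11-ps, that could share reads with this gene.

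The 250 bases before the RefSeq start of S100a11 are shown because they hold the AP-1 pattern TGANTCA at 2 places, in capitals, beginning 136 and 38 bases before the start. AP-1 is the dimer of Fos and Jun proteins. Of 32851 promoter windows of this length from RefSeq (GRCm38.p6), 6.75% hold the pattern at 1 or more places on either strand. The share that holds it at 2 places was not computed. The window is chr3:93520246-93520495, plus strand.
S100a11: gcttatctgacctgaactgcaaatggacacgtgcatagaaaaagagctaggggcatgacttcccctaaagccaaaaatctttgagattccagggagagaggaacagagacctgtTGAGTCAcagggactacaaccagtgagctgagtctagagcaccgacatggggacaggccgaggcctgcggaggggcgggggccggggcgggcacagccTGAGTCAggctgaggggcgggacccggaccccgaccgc

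S100a6, or calcyclin, binds annexin A11 and the calcyclin-binding protein Cacybp, and is associated with dividing and stressed cells. From its locus on chromosome 3 (90612894 to 90614414) came 652 (control), 930 (contralateral) and 4642 (MCAO) normalised counts. Both right hemispheres lay far below the MCAO library. The MCAO level exceeded the control 7.12-fold (6.56 to 7.74) and the contralateral library 4.99-fold (4.66 to 5.35). The difference from the control ranked 90 among all genes tested. With 673 reads in the lowest library, this is the most closely counted of the 4 genes that passed 2-fold against both right hemispheres.

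S100a4, also called metastasin or fibroblast-specific protein 1, binds nonmuscle myosin and loosens its filaments. Its normalised counts (chromosome 3, 90603770 to 90606045) were 66.8 (control), 81.6 (contralateral) and 381 (MCAO). The right hemispheres lay close together, and the ratio between them was 1.22 with an interval that included 1 (0.884 to 1.69). The MCAO level was higher, 5.70 times that of the control (4.39 to 7.51) and 4.67 times that of the contralateral library (3.69 to 5.95).

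S100a4 and S100a6 lie close together on the same strand, and their upstream windows are shown for comparison with S100a11. Neither holds the AP-1 pattern, which says only that those letters are not in these 250 bases. The capitals in the S100a4 window mark the letters TATAAA, beginning 31 bases before the start, a match that 7.59% of all windows hold on the forward strand. The windows are chr3:90603520-90603769 and chr3:90612644-90612893, plus strand.
S100a4: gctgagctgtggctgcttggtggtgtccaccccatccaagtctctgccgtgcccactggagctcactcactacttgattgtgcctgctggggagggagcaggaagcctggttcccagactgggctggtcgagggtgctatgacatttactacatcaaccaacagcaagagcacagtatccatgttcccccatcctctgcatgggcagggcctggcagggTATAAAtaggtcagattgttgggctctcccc
S100a6: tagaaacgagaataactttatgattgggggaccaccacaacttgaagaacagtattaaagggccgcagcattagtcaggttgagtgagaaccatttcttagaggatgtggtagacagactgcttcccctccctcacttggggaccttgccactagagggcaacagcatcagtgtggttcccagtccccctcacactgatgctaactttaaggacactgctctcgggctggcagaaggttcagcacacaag

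S100a10, or p11, has lost calcium binding and is held in its active form. It joins annexin A2 in a complex that docks plasminogen and carries channels to the membrane. The gene (chromosome 3, 93555117 to 93564645) had normalised counts of 213 (control), 271 (contralateral) and 939 (MCAO). The ratio to the control was 4.41 (3.79 to 5.14) and that to the contralateral library 3.47 (3.04 to 3.97). For Anxa2, its partner, the values in that order were 200, 307 and 1213, and the MCAO level exceeded the control 6.08-fold (5.23 to 7.09). Both genes of the complex were thus higher in the MCAO hemisphere than in either right hemisphere.

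S100a1 (90511034 to 90514330), S100a13 (90514233 to 90524581) and S100a16 (90537254 to 90543151) lie close together on chromosome 3 and passed 2-fold against the control, but not against the contralateral library. S100a13, which takes part in the unconventional release of the growth factor FGF1, had normalised counts of 874 (control), 1259 (contralateral) and 2276 (MCAO). Its ratio to the control was 2.61 (2.41 to 2.82), and to the contralateral library 1.81 (1.69 to 1.94). S100a16, a widely expressed member with high levels in astrocytes, had 2793, 3488 and 6154, a ratio of 2.20 to the control (2.10 to 2.31) and of 1.76 to the contralateral library (1.69 to 1.84). S100a1, best known as a regulator of calcium cycling in heart muscle, had 3349, 4967 and 7019, a ratio of 2.10 to the control (2.01 to 2.19) and of 1.41 to the contralateral library (1.36 to 1.47). Each of these genes thus had a middle value in the contralateral library. With the libraries scaled to equal astrocyte identity genes, the log2 difference of S100a1 from the control went from 1.07 to 0.95, below 2-fold.

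S100a1 and S100a13 are read in opposite directions from starts that lie close together, and their RefSeq gene models overlap by 98 bases. Whether the counting used strand is not given in the sources used here, so reads in that overlap cannot be told apart. The 104 bases between the start of S100a1, on the minus strand, and that of S100a13, on the plus strand, are shown as the stretch that lies upstream of both starts in the promoter table. The RefSeq model of S100a13 as a whole begins further upstream, which is where the overlap arises. They are chr3:90514331-90514434, written on the plus strand.
S100a1 and S100a13: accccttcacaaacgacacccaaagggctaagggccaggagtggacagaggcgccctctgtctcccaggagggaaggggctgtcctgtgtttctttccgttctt

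S100b differed from the other members in its order across the libraries. This astrocyte marker, which acts as a trophic factor at low and a toxic factor at high extracellular levels, lies apart from the others on chromosome 10 (76253836 to 76261319). Its normalised counts were 9182 (control), 13351 (contralateral) and 12130 (MCAO), so the contralateral library held the highest value. The MCAO level was 1.32 times that of the control (1.28 to 1.36) but 0.908 times that of the contralateral library (0.886 to 0.932). The other 7 members had counting intervals above 1 in the MCAO hemisphere against the contralateral library, as did 25.6% of all genes tested, whereas the interval of S100b lay below 1.

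The upstream window of S100b is shown beside those above because this gene had the smallest difference from the control. It is chr10:76253586-76253835 on the plus strand, and it holds none of the 5 patterns searched.
S100b: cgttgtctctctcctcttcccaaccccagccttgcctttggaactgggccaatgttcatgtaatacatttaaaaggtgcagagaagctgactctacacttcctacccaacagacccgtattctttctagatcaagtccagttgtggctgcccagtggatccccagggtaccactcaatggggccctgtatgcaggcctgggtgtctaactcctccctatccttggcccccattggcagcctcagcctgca

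Promoter windows were found for 7 of the 8 members, all but S100a10. Besides S100a11, the AP-1 pattern was present in 1 of the 2 windows of S100a16. The STAT pattern TTCNNNGAA, held by 7.02% of all windows, was in none of the members' windows. The SOX patterns ACAAAG and AACAAT, held by 24.0% of windows, were matched in S100a4 and in 1 window of S100a16. A loose NF-kB pattern, GGG and CC separated by any 5 bases, was matched in every member with a window except S100b, but 45.8% of all windows hold it. All but TATAAA were searched on both strands, no other motif overlapped an AP-1 match, and a match is a description of letters, not of binding.

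**Figure D2:**
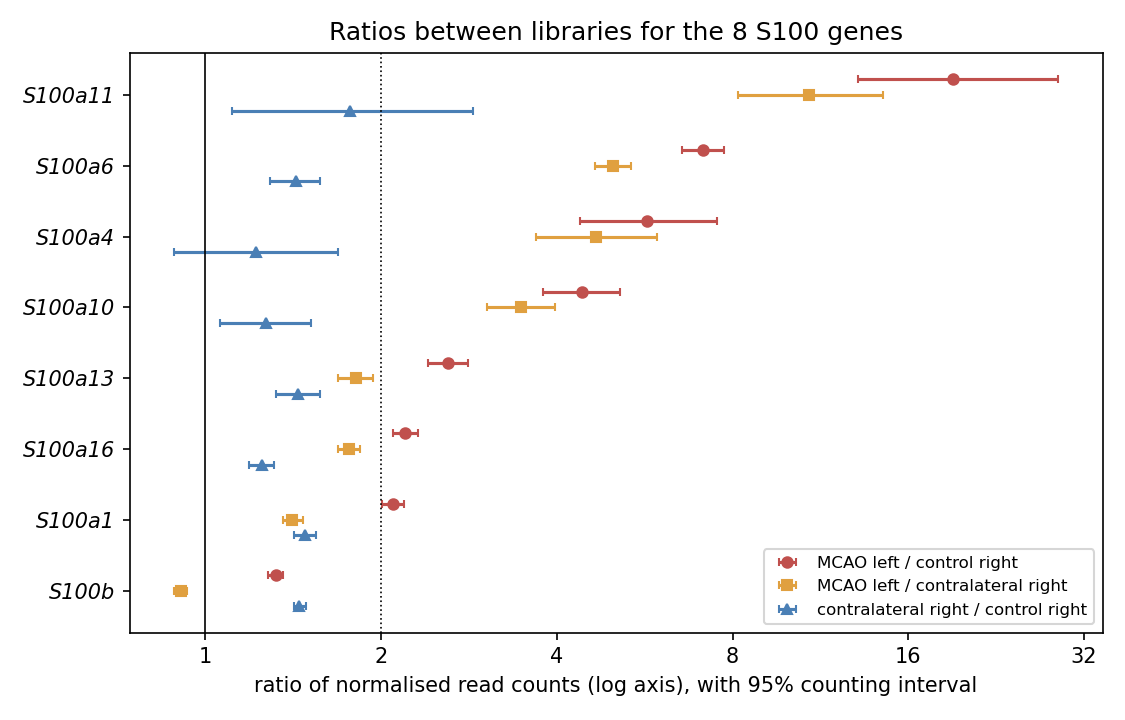
Ratios of normalised read counts between libraries (horizontal log axis) for the 8 S100 genes, with 95% exact counting intervals. The solid line is a ratio of 1 and the dotted line a ratio of 2. S100a11 has the highest ratio to the control, 19.1, and S100b alone has a ratio below 1, 0.908 against the contralateral library.

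The unequal differences altered the make-up of the S100 transcript pool. S100b supplied 53.5% of the reads of the 8 genes in the control (exact 95% interval 52.8 to 54.3), 54.7% on the contralateral side (54.1 to 55.3) and 35.6% in the MCAO hemisphere (35.0 to 36.1). S100a4, S100a6, S100a10 and S100a11 together supplied 5.59% (5.26 to 5.94), 5.46% (5.19 to 5.73) and 19.1% (18.6 to 19.5). Most of that difference in share belonged to S100a6, which held 3.80%, 3.81% and 13.6%. The contralateral pool thus had a make-up near the control's, at a higher level. S100a16 differed most in share between them, at 16.3% (15.7 to 16.8) in the control and 14.3% (13.9 to 14.7) in the contralateral library. The 8 genes summed to 24397 normalised counts in the contralateral library, against 17158 in the control and 34078 in the MCAO hemisphere. Shares compare each gene with itself across libraries. Levels of different genes were not ranked, since longer transcripts give more reads.

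**Figure D3:**
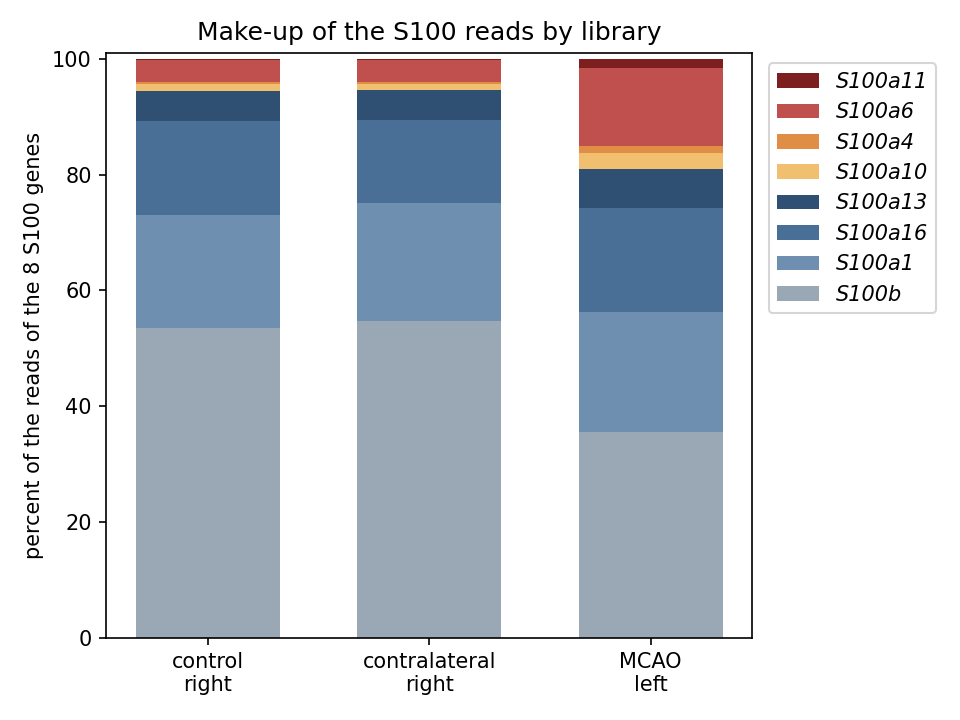
Percent of the reads of the 8 S100 genes (vertical axis) that came from each gene, in each of the 3 libraries. The S100b segment takes 53.5% and 54.7% of the right hemisphere bars and 35.6% of the MCAO bar, where the S100a6 segment is 13.6%.

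In the comparison of the contralateral with the control right hemisphere, all 8 S100 genes were higher on the side opposite the occlusion, and none by 2-fold. The ratios ran from 1.22 for S100a4 to 1.77 for S100a11. S100a1 was at 1.48 (1.42 to 1.55), S100b at 1.45 (1.42 to 1.49), S100a13 at 1.44 (1.32 to 1.57) and S100a6 at 1.43 (1.29 to 1.57). S100a10 was at 1.27 (1.06 to 1.52), S100a16 at 1.25 (1.19 to 1.31) and S100a11 at 1.77 (1.11 to 2.87). In 7 of 8 genes, all but S100a4, the interval lay above 1, against 28.7% of all genes tested, and 49.4% of all genes were above the control by any size. The median log2 difference was 0.52, against 0.00 for all genes.

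At 2-fold, 5.17% of all genes lay above the control and 0.362% below it. In 7 of 8 members the libraries ran from control through contralateral to MCAO in rising order, as they did in 21.8% of all genes. Both comparisons share the control library. On the log2(value + 5) scale 5 of 9 tested genes of the ependymal list, cells that also express S100 genes, passed 2-fold on the contralateral side. That count depends on the filter. Spag17, Pifo (18.4, 60.3 and 11.8) and Dynlrb2 (16.5, 33.7 and 15.3) were under 20 in the control and the MCAO library. They thus passed the filter only through the contralateral library. Mia, at 8.72, 29.3 and 22.3, passed the filter narrowly, and Tmem212, at 20.3, 10.6 and 10.6, did not pass. Tested but not past 2-fold were Dynlrb2, Ccdc153, Foxj1 and Rarres2, with contralateral log2 differences from the control of 0.85, 0.33, 0.24 and 0.09. The summed normalised counts of the list were 855 (control), 1434 (contralateral) and 1259 (MCAO). The largest part of the contralateral difference lay in Spag17, a cilium and sperm tail gene, at 7.75, 325 and 1.18. Most of the MCAO difference in the sum lay in Rarres2, at 419, 446 and 766, and the list's median log2 difference there was -0.02. The median contralateral difference from the control was 0.46 for the pan-reactive astrocyte list and 0.43 for fibroblasts and meninges, near the 0.52 of the S100 genes. It was 0.28 for macrophages and monocytes, 0.17 for microglia and 0.07 for astrocyte identity. The oligodendrocyte, precursor, neutrophil, endothelial, mural and neuron medians were negative. The part of reactive astrocyte, fibroblast, ependymal or germ cell transcripts in the contralateral S100 values was not tested.

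**Figure D4:**
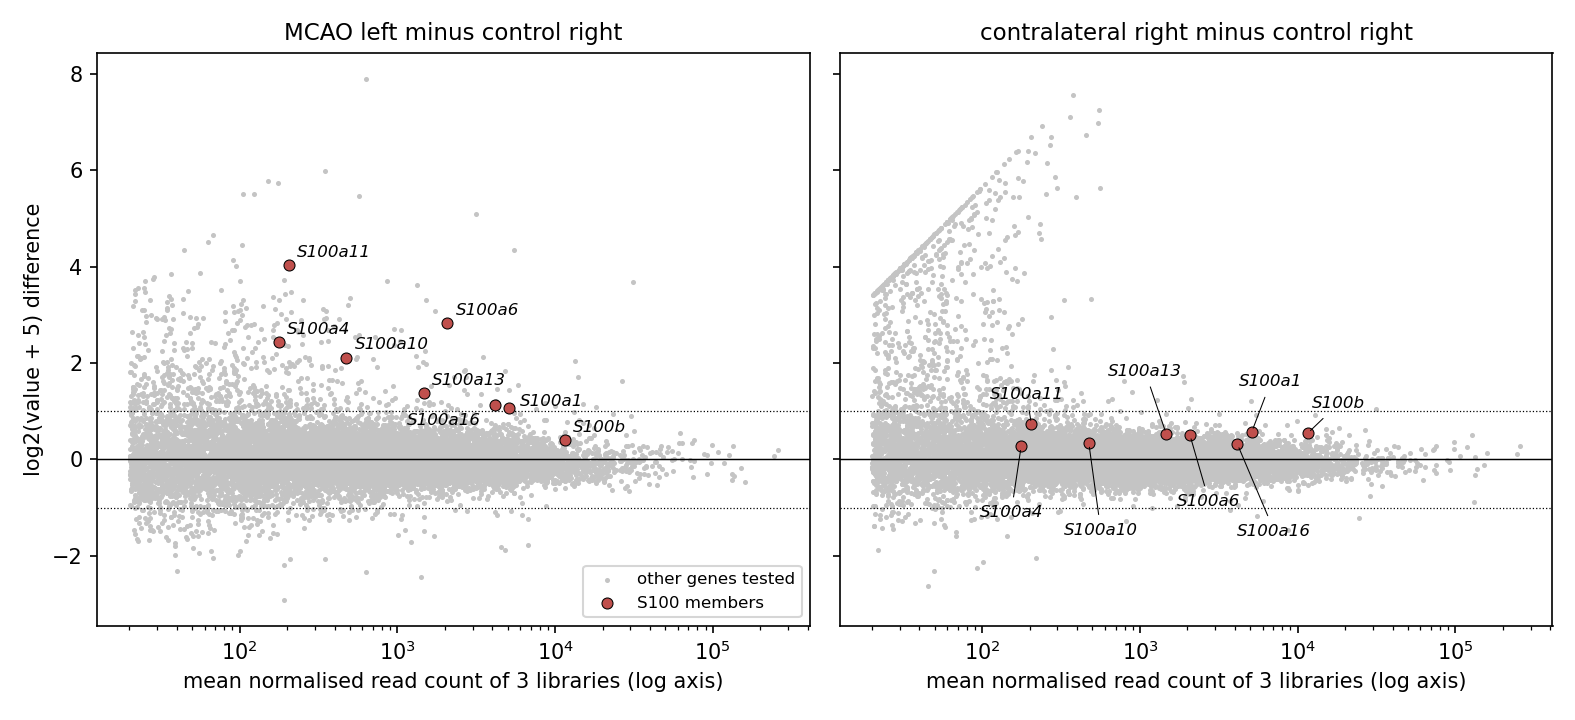
Differences on the log2(value + 5) scale (vertical axes) against the mean normalised read count of the 3 libraries (horizontal log axes) for all 14906 genes tested, with the 8 S100 genes in red. Dotted lines mark 2-fold. S100a11, at 4.04, is the highest S100 gene in the left panel, and all S100 genes lie between 0 and 1 in the right panel.

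The rest of the S100 family was nearly absent from the table. Of 19 other family symbols, including the fused S100 genes of skin, 4 were listed and only Tchh, which encodes the hair follicle protein trichohyalin, passed the filter, at 1178, 1202 and 1452 normalised counts. S100a9, which encodes a subunit of the neutrophil protein calprotectin, had 5.81, 14.2 and 16.5, and its partner S100a8 was not listed. S100a3 had 5.81, 7.10 and 16.5. S100a5, a gene of olfactory sensory neurons, had 18.4 in the control, and the other libraries list it at 1, the lowest value of the table. These low values rest on at most 19 reads per library.

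Genes of proteins that bind S100 dimers were read out next. Of 38 partner genes tested, 2 were at least 2-fold above both right hemispheres, against 2.58% of all genes. Against the control 3 were 2-fold higher, where 4.12% of all genes were, and none was 2-fold lower, with a median log2 difference from the control of 0.15. Gfap, the astrocyte filament protein that S100b binds, had an MCAO to control ratio of 12.9 (12.5 to 13.2), and Anxa2 is given above. Cd36, a scavenger receptor, had a ratio of 2.50 (1.39 to 4.66). Named partners of the other members stayed within 2-fold of the control in the MCAO hemisphere. Anxa1, the annexin that S100a11 binds, had 22.3, 36.4 and 21.2 normalised counts, Anxa11 had 760, 760 and 941, and Cacybp had 2269, 2675 and 2683. Ager, the RAGE gene, was low throughout, at 16.5, 5.32 and 17.6. Ahnak, a scaffold protein bound by the complex of S100a10 and annexin A2, had 404, 334 and 645, a ratio of 1.60 to the control (1.40 to 1.82).

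Of 70 other EF-hand genes tested, 2 were at least 2-fold above both right hemispheres and 3 above the control, shares near those of all genes (2.58% and 4.12%), with a median log2 difference from the control of 0.01. Those were Lcp1, an actin bundler of leukocytes, at 164, 205 and 626, Ehd2, a membrane-shaping protein of caveolae, at 142, 141 and 342, and Calml4, at 32.0, 67.4 and 70.6.

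Genes that lie among the S100 genes were also read out. Between the outer ends of S100a1 and S100a10 on chromosome 3 (90511034 to 93564645) RefSeq has 70 protein-coding genes, of which 15 were listed. Of these, 5 were not S100-named and 4 passed the filter. Smcp and Lelp1 passed it only through the contralateral library and had at most 3 reads in each of the other libraries, so the MCAO hemisphere and the control could be compared in Lor and Tchh alone, and neither differed 2-fold. Lor, the skin protein loricrin, had 120, 119 and 119 normalised counts. Smcp, a sperm mitochondrial protein gene in the same interval, had 2.91, 812 and 2.35. Lor, Smcp and Lelp1 were named after their values were seen.

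The genes closest in pattern to each member were taken as the 2 with the nearest pair of log2 differences from the control, among 11800 genes. Left out were S100 genes, predicted or clone names, and all symbols that begin with a capital letter and a digit, such as C1qa. Genes left out can lie as near as those named. For S100a11 these were Vim, the filament protein vimentin, with 707, 1351 and 14359 normalised counts, and Nes, the progenitor filament protein nestin, with 163, 232 and 2182. S100a6 was closest to Osmr, the oncostatin M receptor, at 34.9, 48.8 and 272, and to Hk3, a hexokinase of myeloid cells, at 32.9, 46.1 and 256. Among the genes compared, S100a4 was closest to Fcrls, a microglial receptor-like gene, at 80.4, 98.5 and 433, and to Trim47, at 68.8, 87.8 and 382. The complement gene C1qc, left out by its symbol, was also close to S100a4. Its log2 differences from the control were 2.45 (MCAO) and 0.21 (contralateral), against 2.43 and 0.27 for S100a4. S100a10 was closest to Clic1, an intracellular chloride channel protein, at 323, 403 and 1390, and to the lysosomal enzyme gene Gusb, at 592, 732 and 2624. S100a1 lay nearest to the calponin gene Cnn3, at 5007, 7262 and 10359, and to the sodium pump regulator gene Fxyd1. S100a13 lay nearest to Plscr2 and Spidr, S100a16 to Eif4ebp1 and Tmem176b, and S100b to Uqcrh and Nov. Few genes came within a distance of 0.1 log2 units of the members with large differences (0 for S100a11 and 3 for S100a6), while 92 did for S100b. With 3 libraries such likeness is a description of 2 differences per gene.

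Markers of other cell types moved in the same library as the S100 genes. At least 2-fold above both right hemispheres in the MCAO hemisphere were 11 of 12 tested pan-reactive astrocyte genes, against 2.58% of all genes tested. Lcn2 was at 10.7, 54.1 and 981 normalised counts and Timp1 at 2.91, 19.5 and 428. All 13 listed genes of that list summed to 13602 (control), 22921 (contralateral) and 120314 (MCAO), of which Gfap made up 5903, 12202 and 76049. Of 12 microglia genes 8 were above both, led by Tyrobp at 92.0, 204 and 729 and C1qb at 355, 492 and 2325, with sums of 10918, 11349 and 31106. Of 8 tested macrophage and monocyte genes 7 were above both, led by Msr1 at 4.84, 5.32 and 519 and Cd68 at 92.0, 147 and 818. All 10 listed genes of that list summed to 793, 950 and 4313. These counts depend on the filter. Timp1, Msr1 and Cxcl10 (5.81, 10.6 and 95.3) were under 20 in both right hemispheres and passed it only through the MCAO library. Steap4, Ccr2 and Ms4a7 of these lists did not pass it. The part of microglia and macrophages in the higher S100a4, S100a6, S100a10 and S100a11 values was not tested.

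Other candidate sources differed less. Of 10 fibroblast and meningeal genes none was 2-fold above the control in the MCAO hemisphere, where 4.12% of all genes tested were. Their summed normalised counts were 8359 (control), 11203 (contralateral) and 8771 (MCAO). Of 11 neutrophil genes 2 were listed, with sums of 140, 130 and 367. Csf3r, a cytokine receptor of granulocytes, was 1 of them and passed 2-fold, at 81.4, 96.7 and 314. The other, Mmp9, did not, at 59.1, 33.7 and 52.9, a ratio of 0.896 to the control (0.596 to 1.34). Ly6g, Camp and Mpo were not listed. None of 8 lymphocyte genes was listed. The 20 astrocyte identity genes had a median log2 difference from the control of 0.05 in the MCAO hemisphere, with none past 2-fold. The median differences of the oligodendrocyte, oligodendrocyte precursor, ependymal, endothelial, mural and neuron lists were 0.19, 0.06, -0.02, 0.08, 0.05 and -0.19. That of the male germ cell list, -0.36, rests on genes with at most 8 reads each in the control and in the MCAO library. Those genes passed the filter only through the contralateral library. Of 8 oligodendrocyte precursor genes 2 were 2-fold above the control in the MCAO hemisphere, against 4.12% of all genes tested. They were Cspg4, which encodes the proteoglycan NG2, at 554, 454 and 1276, and Olig2, a transcription factor of the lineage, at 813, 1417 and 1714. Of 10 mural genes 2 were 2-fold above the control, Cspg4 again and Des, the muscle filament protein desmin, at 17.4, 20.4 and 42.3. Des lay near the filter of 20 in both right hemispheres and passed it only through its MCAO value. On the log2(value + 5) scale no tested oligodendrocyte, ependymal, endothelial, neuron or male germ cell gene was 2-fold above the control in the MCAO hemisphere. Without the pseudocount the ependymal gene Mia, at 8.72, 29.3 and 22.3, had a ratio of 2.56 (1.11 to 6.43). The germ cell gene Prm1, at 2.91, 567 and 9.41, had a ratio of 3.24 with an interval that included 1 (0.777 to 19.0). Spag17, with 8 control reads, and the germ cell gene Akap4, also with 8, were 2-fold below the control on the log2(value + 5) scale.

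**Figure D5:**
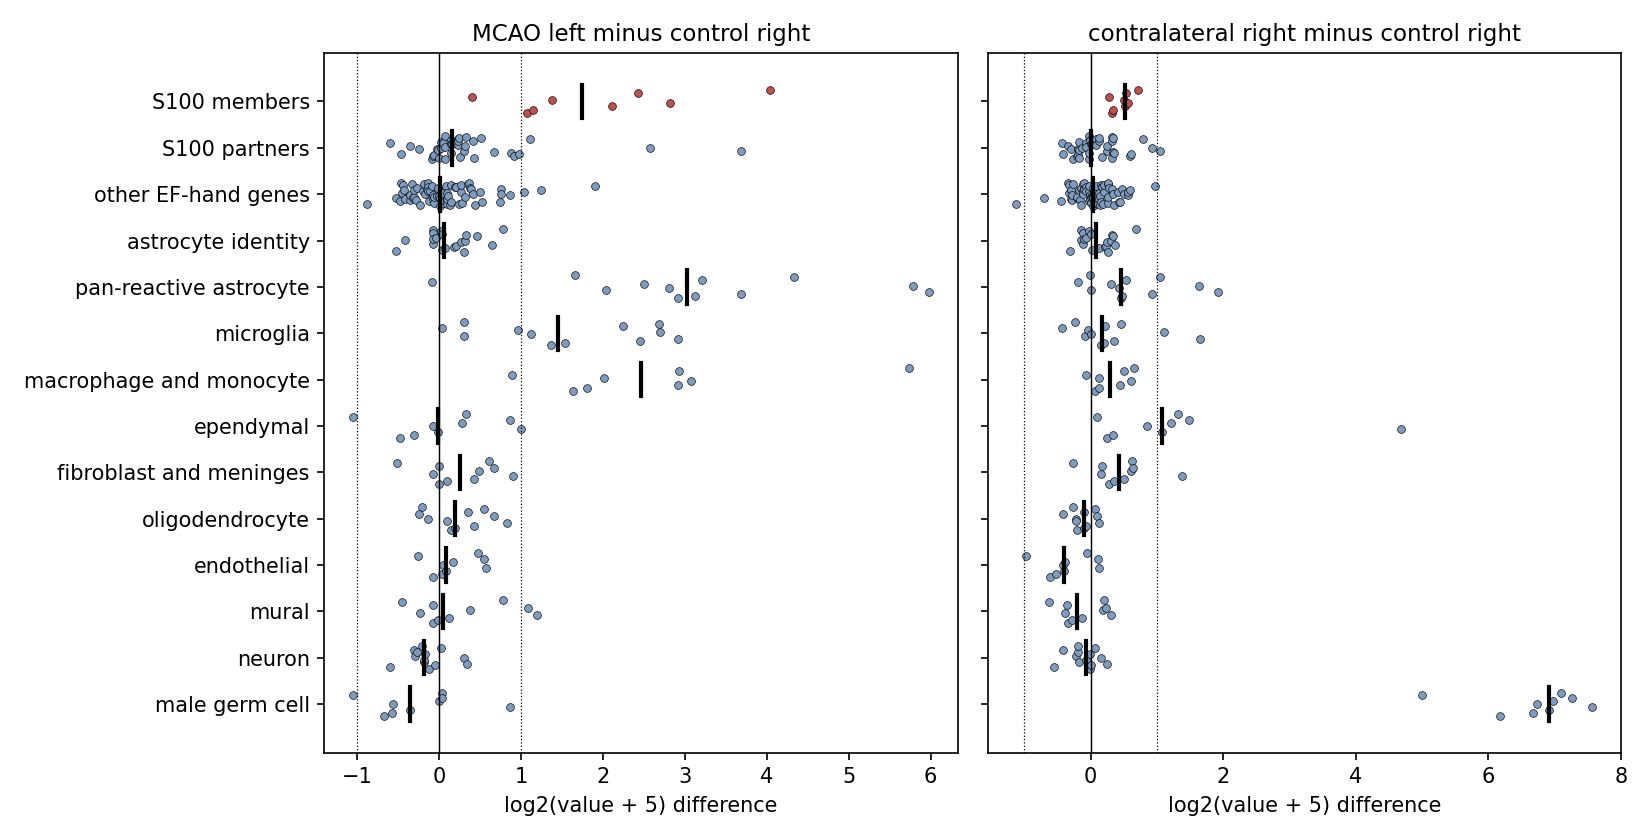
Differences on the log2(value + 5) scale (horizontal axes) of the tested genes of 14 lists, 1 point per gene, with the median of each list as a black bar and 2-fold as dotted lines. In the left panel the S100 members, at a median of 1.74, lie with the reactive astrocyte, microglia and macrophage lists above the partner and EF-hand lists. In the right panel the male germ cell list stands apart.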

How the data were processed

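RNA from RiboTag pull-downs of 3 hemisphere pools was sequenced. The deposited table holds a signal, gene read counts that the authors divided by a size factor per library, with values below 1 listed as 1. Tools listed, without roles, in the submitters' processing notes are HISAT2 2.0.11, CASAVA 1.8, R 3.3.1, Partek 6.6 and DESeq2, and the build is mm10. Annotation, strand use and filters are not given in the sources used here. The highest value of every gene was 10.6 or more. Columns were matched to samples by their descriptions.

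What 1 read was worth was found per column (0.969, 0.887 and 1.18 in the control, contralateral and MCAO libraries). Of values above 1, 99.9% were whole within 0.1 read. Reads gave exact Clopper-Pearson intervals at 95%. A value listed at 1 was counted as 0 reads. In the background shares of intervals it was taken as 1 read. The recovered totals were 31833456, 33886604 and 25930258. Differences used log2(value + 5), which understates those of low genes. Printed ratios carry no pseudocount.

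The members and the 18 other lists were chosen with earlier results of these data known. Genes named were all 8 members and listed family genes, the largest differences past 2-fold in each list (up to 5 for partners and EF-hand genes, 2 for cell types), 6 partners always given, and the nearest genes by Euclidean distance with a mean of at least 100. The search for nearest genes left out symbols that begin with a capital letter and a digit. Ratios to a value at the minimum were not computed. RefSeq positions and promoters are of GRCm38.p6 (mm10), and 15912 of 16610 symbols matched its table. TATAAA was added to the motifs after the sequences were seen. Alternatives were 2 pseudocounts, 3 scalings, 2 filters and 2 thresholds. Python 3.11.15, numpy 2.4.6, pandas 2.3.3, scipy 1.17.1 and matplotlib 3.10.9 were used, and the steps were tested on simulated data.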

Additional observations from a re-analysis of the deposited data

How the results depend on the processing

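Across 3 alternative scalings, 65 of 72 log2 differences of single members moved by less than their counting interval, and none changed sign. The other 7 moved when the libraries were scaled to equal astrocyte identity genes, which shifted the median of all genes by -0.12 in the MCAO hemisphere and -0.11 in the contralateral library against the control. The members' median against the control was then 1.63 in place of 1.74. Against the control 6 members in place of 7 passed 2-fold, where 3.58% of all genes did under that scaling. All 8 members stayed above the control in the contralateral library, and 7 kept the rising order under each of the 3 scalings, a check chosen after seeing the data. With other pseudocounts all 48 differences stayed within their counting interval. A pseudocount cannot change a sign or an order, and the filters do not touch a single member's values. At a threshold of 3-fold 4 members passed against the control, and at 1.5-fold 1 member, S100a11, differed in the contralateral library. The shares of all genes at these thresholds were not computed.

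The shares of all genes depended on the filter and the pseudocount. With a mean of at least 100, 1.60% in place of 2.58% of genes were 2-fold above both right hemispheres, 2.28% in place of 4.12% above the control, 1.86% in place of 3.18% above the contralateral library, and 1.51% in place of 5.17% higher in the contralateral library. With no filter the last share was 8.52%. With a pseudocount of 20, 0.704% in place of 1.25% of genes were 2-fold below the control in the MCAO hemisphere and 0.181% in place of 0.362% in the contralateral library. These lower shares were 0.764% and 0.129% with a mean of at least 100, and the contralateral one was 0.674% with no filter and 0.544% with equal astrocyte identity genes. The share in rising order was 14.5% in place of 21.8% with equal astrocyte identity genes. No paired analysis was possible because each group has 1 library, and for the same reason no replicate could be left out and no count model fitted. Depth limits S100a11 and S100a4, with 29 and 69 control reads.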
